A study of Homo sapiens with 3 samples.

Results

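The 8 genes described here encode the mitochondrial RNA polymerase, factors of mitochondrial transcription and termination, and relatives of these factors. They are POLRMT, TFAM, TFB1M, TFB2M, MTERF1, MTERF2, MTERF3 and MTERF4. They were taken by symbol from the platform annotation, keeping probe sets annotated to 1 gene, and all 8 were found among 18239 genes, in 16 of 49386 probe sets. The group was selected on the DRB difference of MTERF1, which was strongly lower than control. The DRB differences below are therefore a description of what chose the group, and nothing is supported with them.

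Messenger RNA was measured in A498, an established human kidney carcinoma line of epithelial cells without functional VHL. The 3 cultures were 1 control with 0.08% DMSO, 1 with E. coli 83972 and 1 with DRB at 60 µM. All were confluent, in serum-free medium with gentamicin, and were sampled at 4 h in the experiment numbered 2. E. coli 83972 colonizes the urinary tract without symptoms, and DRB inhibits CDK9 and so blocks elongation by nuclear RNA polymerase II. The labels disagree on the bacterial concentration, so none is given, and they state DMSO for the control alone. DMSO and either treatment therefore cannot be told apart. Each group was 1 array of 1 line, with no replicates, so each difference compares single arrays, and no test was possible.

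The mitochondrial genome is transcribed by POLRMT, a single-subunit polymerase related to those of phages, which is encoded in the nucleus. TFAM bends and packages mitochondrial DNA and recruits POLRMT to the promoters, and TFB2M melts the promoter. TFB1M, a relative of TFB2M, is a methyltransferase of the small ribosomal subunit RNA. The MTERF family binds mitochondrial nucleic acids through helical repeats. MTERF1 binds within a leucine tRNA gene downstream of the ribosomal RNA genes and terminates transcription there. All 8 messages are made by RNA polymerase II in the nucleus, the enzyme that DRB holds back, whereas POLRMT works inside the mitochondrion.

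NRF1 and the ETS factor GABP are textbook activators of nuclear genes for mitochondrial transcription, so the promoters were read for their sites. RefSeq promoter sequences (GRCh38.p14) matched 7 of the 8 genes. Of each, the 250 bases before the start were searched on both strands for GCATGCGC (NRF1), CGGAAGT (ETS, GABP), GGGCGG (SP1), CCAAT and AAGATGGC (YY1), joining overlapping matches of a motif. The motifs were chosen with the sequences in view. Capitals below mark these matches. MTERF1 is shown as the gene with the largest DRB difference, and MTERF2 as a family member without an NRF1 or ETS match. TFB2M and POLRMT are shown as genes with both matches and DRB differences of opposite sign as deposited. That of POLRMT was small, at 0.22, and its sign depended on the scaling described below.
MTERF1, chr7:91880703-91880952, minus strand: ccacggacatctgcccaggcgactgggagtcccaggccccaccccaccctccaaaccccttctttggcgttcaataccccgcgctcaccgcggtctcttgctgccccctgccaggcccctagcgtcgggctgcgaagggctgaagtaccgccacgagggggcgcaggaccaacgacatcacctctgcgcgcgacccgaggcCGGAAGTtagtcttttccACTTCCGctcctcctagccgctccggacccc
MTERF2, chr12:106987147-106987396, minus strand: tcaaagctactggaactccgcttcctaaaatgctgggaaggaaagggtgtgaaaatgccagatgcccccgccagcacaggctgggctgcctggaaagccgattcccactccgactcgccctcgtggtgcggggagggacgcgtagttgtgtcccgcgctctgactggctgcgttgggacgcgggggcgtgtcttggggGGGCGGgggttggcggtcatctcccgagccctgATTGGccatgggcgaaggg
TFB2M, chr1:246566262-246566511, minus strand: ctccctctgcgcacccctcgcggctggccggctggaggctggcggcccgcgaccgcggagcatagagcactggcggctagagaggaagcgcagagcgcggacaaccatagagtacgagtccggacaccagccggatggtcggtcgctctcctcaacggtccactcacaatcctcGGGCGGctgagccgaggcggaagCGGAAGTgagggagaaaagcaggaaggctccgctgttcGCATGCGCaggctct
POLRMT, chr19:633538-633787, minus strand: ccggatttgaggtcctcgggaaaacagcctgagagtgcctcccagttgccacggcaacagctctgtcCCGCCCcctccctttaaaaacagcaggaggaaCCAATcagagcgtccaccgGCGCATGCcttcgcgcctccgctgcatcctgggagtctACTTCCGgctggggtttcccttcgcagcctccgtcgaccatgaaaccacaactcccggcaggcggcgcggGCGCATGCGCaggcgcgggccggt

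The MTERF1 promoter held 2 ETS matches, beginning 49 and 31 bases before the start and lying on opposite strands, and no other motif searched. Among 35116 promoters of the same length 0.755% held at least 2 ETS matches and 5.69% at least 1. Among the 9563 genes with signal on these arrays and a promoter sequence the shares were higher, 1.75% and 10.8%. TFB2M held 1 ETS and 1 NRF1 match, and POLRMT 1 ETS match and 2 NRF1 stretches. TFB1M held 1 NRF1 match and no ETS match, and MTERF4 the reverse with 1 ETS match. The NRF1 letters occurred in 2.63% of all promoters and 4.76% of those 9563. TFAM held 3 stretches of SP1 matches and 1 CCAAT match, and MTERF2 held 1 of each. SP1 letters were in 42.6% of all promoters and 66.5% of those of genes with signal, and CCAAT in 32.0% and 34.8%. YY1 letters, in 1.36% and 1.67%, were in none of the 7. A match is a description of the letters and no evidence of a bound factor, and the lack of one says nothing of the factor.

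The values were log2 probe-set values as deposited. The level of a probe set is compared only across arrays, because probe sets differ in how brightly they hybridize. A probe set was kept when its highest value reached 4.88, the median of all values. Of the 16 probe sets 12 were kept, with at least 1 for each gene. A gene was represented by its brightest probe set and counted as different at 2-fold, that is 1 on the log2 scale. The arrays gave a technical standard deviation of a log2 difference of 0.15 (robust) or 0.32 (plain) for DRB and 0.12 or 0.18 for E. coli 83972. These came from the disagreement of 2 probe sets of a gene over 6317 genes, and hold no variation between cultures. Fewer cells holding a message and less of it per cell cannot be told apart in such bulk samples.

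With DRB, 5 of the 8 genes were at least 2-fold lower than control and 0 higher. They were all 4 MTERF genes and TFB2M, while TFAM, TFB1M and POLRMT were under 2-fold. Of the 5, all but MTERF1 passed 2-fold by less than the plain technical deviation of 0.32. Of all 11653 kept genes 10.2% were lower by that much and 0.129% higher. The median difference of the 8 genes was −1.12, against 0.05 for all kept genes, which is a gap of −1.18. On the E. coli 83972 array 1 of the 8 genes, MTERF1, was at least 2-fold lower and 0 were higher. The shares over all kept genes were 0.652% lower and 1.91% higher, and the median of the 8 genes was −0.16 against −0.03. Both comparisons use the same control array.

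**Figure D1:**
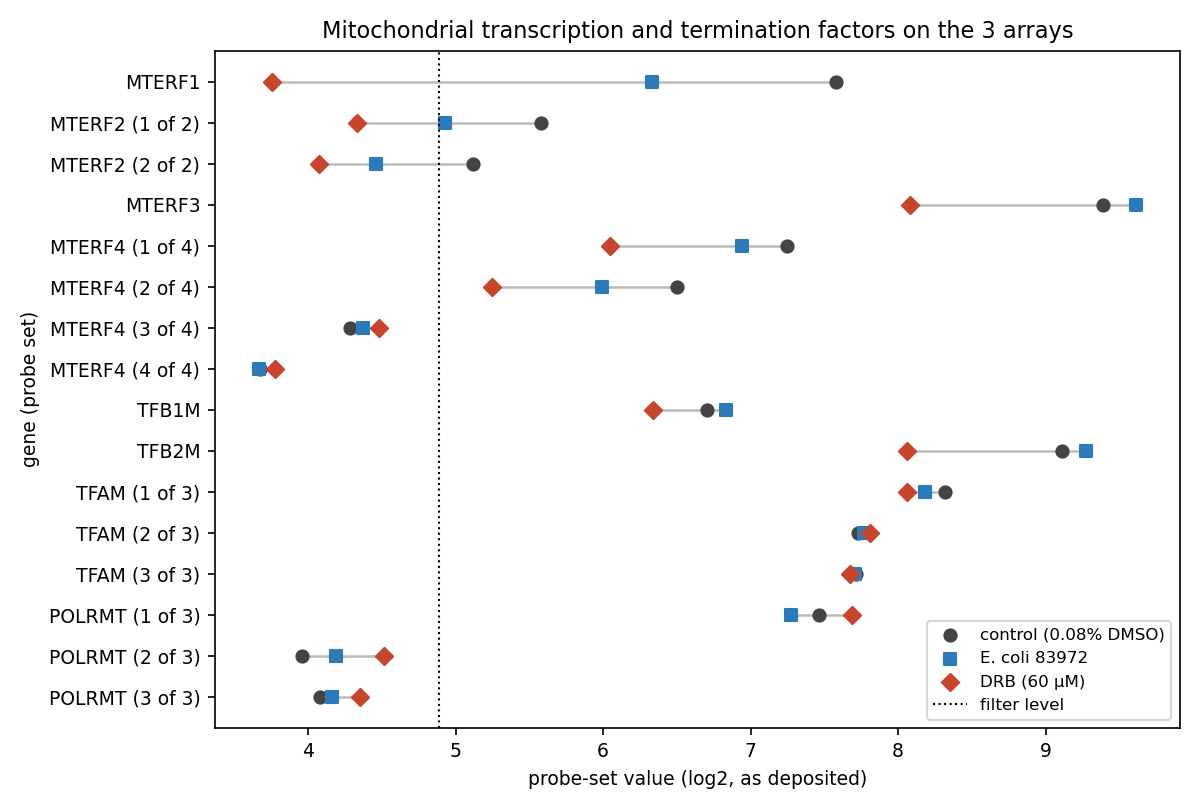
Log2 probe-set values (horizontal axis) of the 16 probe sets of the 8 genes (vertical axis) on the control, E. coli 83972 and DRB arrays, 1 point per array, with the filter level of 4.88 dotted. DRB was the lowest array in all 4 MTERF genes for kept probe sets, MTERF1 spanned the widest range, 3.75 to 7.58, and the points of the dimmer TFAM probe sets nearly coincide.

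MTERF1 read 7.58 on the control array, 6.33 with E. coli 83972 and 3.75 with DRB. The control value lay above 80.9% of the probe sets of its array, that with E. coli 83972 above 68.7% and that with DRB above 23.0%. MTERF1 thus went from the upper part of the distribution to its low end, under the filter level. The measured difference with DRB was −3.83 on the log2 scale. Because the DRB value lies where dim signals are compressed, its size and rank are uncertain. Set against the filter level in place of the DRB value, the control was 2.70 higher on the log2 scale, or at least 6.49-fold. Against the E. coli 83972 array the DRB array was lower by 2.58 on the log2 scale.

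The E. coli 83972 difference of MTERF1 was −1.25, or 2.38-fold lower. It subtracts the same control value of 7.58 as the DRB difference that chose the group, so a control value that read high would lower both. It is therefore given as a description and is not independent of that choice. As such it ranked 41st from the lowest of 11653 kept genes, beside a plain technical deviation of 0.18. It stayed at least 2-fold lower under each alternative that gave it a value, the largest in size being −1.50 with centring on hybridization spike-ins. The gene had 1 probe set, so no other probe set bears on either value, and averaging and the filters could not change them. Spike-in centring moved the E. coli 83972 difference by a constant of −0.14 (poly-A) or −0.25 (hybridization). Only loess correction could have raised it, so this stability says little.

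MTERF2, a paralogue also known to bind mitochondrial DNA, had the same order of arrays in both of its probe sets. The brighter read 5.58 in control, 4.93 with E. coli 83972 and 4.33 with DRB. The other read 5.12, 4.46 and 4.08 in the same order. Control was thus the highest array and DRB the lowest, but all values were near the filter level, and both DRB values were under it. The DRB differences were −1.25 and −1.05 (mean −1.15 ± 0.14, SD over 2 probe sets). The E. coli 83972 differences of −0.66 and −0.66 agreed closely and were under 2-fold, although only 2.21% of kept genes were lower than the brighter.

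MTERF4, which partners the methyltransferase NSUN4 in assembly of the large mitochondrial ribosomal subunit, had 2 kept probe sets and 2 dim ones. The brightest read 7.25 in control, 6.94 with E. coli 83972 and 6.05 with DRB. The second read 6.50, 5.99 and 5.25. Both therefore had control highest and DRB lowest, as for MTERF1 and MTERF2. The DRB differences were −1.20 and −1.25 (mean −1.23 ± 0.04, SD over 2 probe sets), and those with E. coli 83972 −0.30 and −0.51. The dim probe sets read between 3.67 and 4.48 on all arrays, and their DRB differences were 0.20 and 0.10, so the mean over all 4 probe sets was −0.54. Their E. coli 83972 differences were 0.09 and −0.01. Which transcripts each probe set detects is not given in the sources used here. NSUN4 itself, named after its value was seen, differed by −0.83 with DRB and by 0.11 with E. coli 83972.

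MTERF3, a negative regulator of mitochondrial transcription that also acts in ribosome assembly, had another order. It read 9.39 in control, 9.61 with E. coli 83972 and 8.08 with DRB. The DRB difference was −1.31, or 2.48-fold lower. The E. coli 83972 difference was 0.22, little above the plain technical deviation of 0.18, and turned to −0.03 with centring on hybridization spike-ins. Unlike the kept probe sets of the 3 other family members, that of MTERF3 was therefore not lower with E. coli 83972 as deposited. The 4 paralogues had DRB differences of −1.20 to −1.31 apart from MTERF1, at −3.83.

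**Figure D2:**
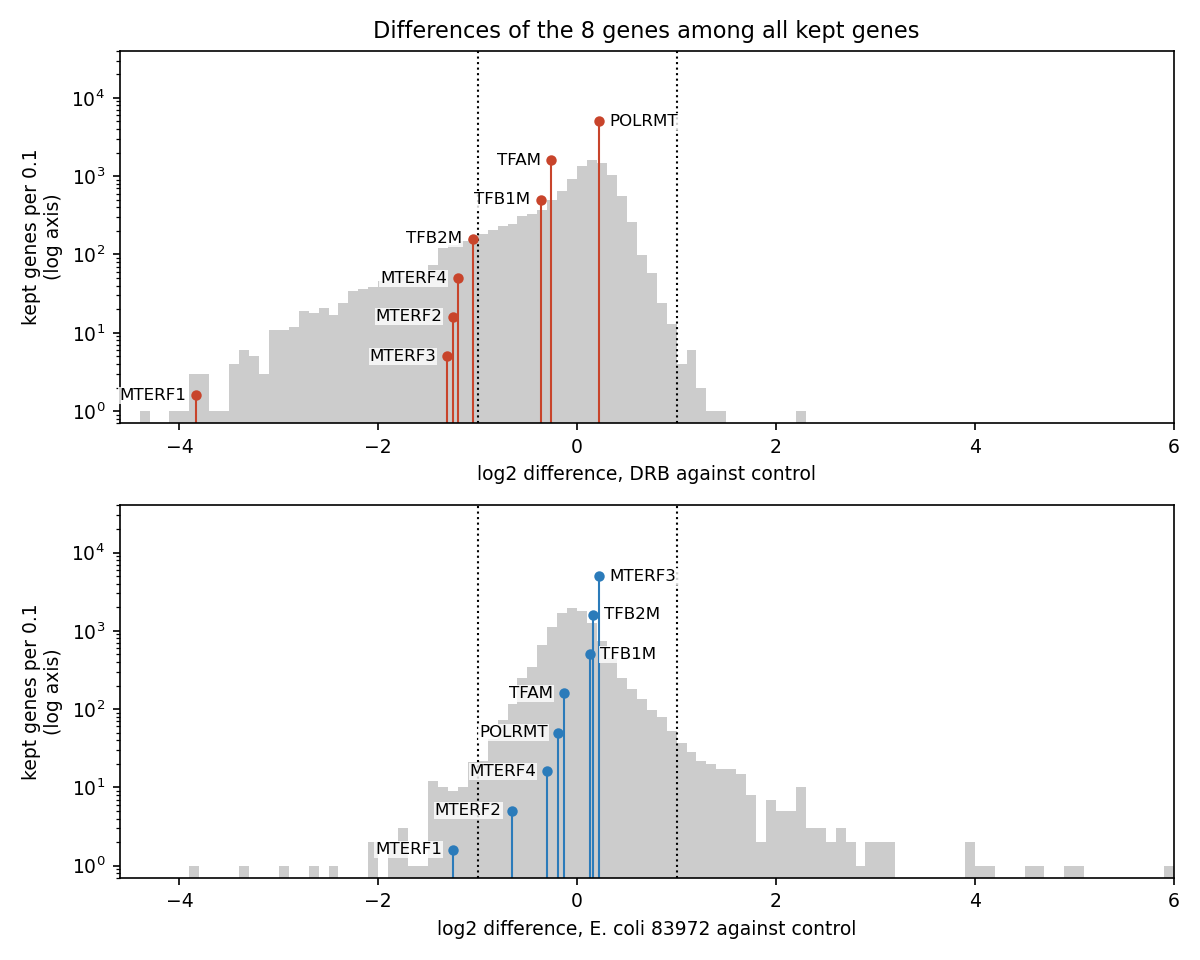
Log2 differences (horizontal axis) of the 8 genes, drawn as labelled stems, over a histogram of all 11653 kept genes (vertical axis, genes per bin of 0.1, log scale), for DRB against control (top) and E. coli 83972 against control (bottom). Stem heights only separate the names, and dotted lines mark 2-fold. MTERF1 stood in the lower tail of both, at −3.83 and −1.25, while POLRMT was the one gene above 0 with DRB, at 0.22.

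TFB2M, the initiation factor that opens the promoter, read 9.11 in control, 9.27 with E. coli 83972 and 8.06 with DRB. DRB was the lowest array and the other arrays lay close together. The DRB difference of −1.05 passed the 2-fold threshold by less than either technical deviation. Those of MTERF2, MTERF3 and MTERF4 passed it by less than the plain one. The E. coli 83972 difference of TFB2M was 0.16. TFB1M, its relative that modifies ribosomal RNA, read 6.70, 6.83 and 6.34 on the same arrays. It had the same order of arrays as TFB2M with a smaller DRB difference of −0.36, and an E. coli 83972 difference of 0.13. Each gene had 1 probe set. Both E. coli 83972 differences were below 0 with centring on hybridization spike-ins, at −0.09 for TFB2M and −0.12 for TFB1M, and that of TFB1M also with poly-A centring, at −0.0073.

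TFAM, by the range of its brightest probe set over the 3 arrays, varied least among the 8 genes. That probe set read 8.32 in control, 8.18 with E. coli 83972 and 8.06 with DRB. The second read 7.73, 7.77 and 7.81, and the third 7.72, 7.71 and 7.67. The order of arrays was not the same in the 3 probe sets, so no array was consistently high or low. Mean differences were −0.07 ± 0.17 (SD over 3 probe sets) with DRB and −0.04 ± 0.09 with E. coli 83972. With centring on poly-A spike-ins the brightest probe set differed by −0.91 with DRB, still under 2-fold.

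POLRMT, the polymerase itself, read 7.46 in control, 7.27 with E. coli 83972 and 7.69 with DRB in its kept probe set. DRB was the highest array here, the reverse of the MTERF genes. The differences were 0.22 with DRB and −0.19 with E. coli 83972, and the former turned to −0.43 with poly-A centring and the latter to 0.04 with the mean over all probe sets. The 2 dim probe sets read between 3.96 and 4.51, with DRB differences of 0.28 and 0.55 and E. coli 83972 differences of 0.08 and 0.23. They had DRB highest too, but the reverse sign to the kept probe set with E. coli 83972. The polymerase and its packaging factor TFAM were thus under 2-fold on both treated arrays.

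The DRB differences depend on the scaling. The 24 poly-A spike-in probe sets, controls that are added to RNA before labelling, were 0.65 higher at the median on the DRB array than on control. Centring on them moves every DRB difference by −0.65 and the median of all kept genes from 0.05 to −0.60. TFB1M then also passed 2-fold, at −1.01, so that 6 of 8 genes were lower, as were 2880 of all kept genes in place of 1185. The difference between the medians of the 8 genes and of all kept genes does not depend on this shift. The counts of the gene lists below move with it too. With poly-A centring 6 of 19 replication genes, 11 of 27 modification genes and 5 of 12 translation factors were lower with DRB. So were 6 of 11 nuclear regulators and 11 of 29 nuclear polymerase genes. These stand beside the 2880 of 11653 kept genes in that setting. Hybridization centring and loess correction each gave 4 replication genes, beside 1607 and 1423 of the 11653 kept genes. The 9 hybridization spike-ins shifted differences by −0.21 with DRB and by −0.25 with E. coli 83972.

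The 5 kept genes nearest to MTERF1 in its pair of differences, over the 3 arrays, were EXOC8, KBTBD6, TRIM59, PNRC2 and CMTR2. Their Euclidean distances were 0.51 to 0.75 on the log2 scale. On the DRB array 4 of the 5, all but PNRC2, were under the filter level, as was MTERF1, so these distances and DRB differences are uncertain. EXOC8, an exocyst subunit, differed by −4.02 with DRB and by −0.77 with E. coli 83972. KBTBD6, an adaptor of a ubiquitin ligase, differed by −3.40 and −0.83, and TRIM59 by −3.30 and −0.92. PNRC2, which acts in mRNA decapping, differed by −3.50 and −0.64, and CMTR2, a methyltransferase of the mRNA cap, by −3.52 and −0.56. As deposited 0 of the 5 were 2-fold lower with E. coli 83972. With hybridization centring 3 were, TRIM59 (−1.18), KBTBD6 (−1.09) and EXOC8 (−1.03), and with poly-A centring TRIM59 was. The other probe set gave a smaller DRB difference for EXOC8, at −2.25 (mean of both −3.13 ± 1.25, SD). It was also smaller for KBTBD6, at −1.11 (mean of both −2.26 ± 1.62), but larger for CMTR2, at −3.94. The 3 probe sets of PNRC2 ran from −4.48 to −2.66 (mean −3.54 ± 0.91, SD).

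**Figure D3:**
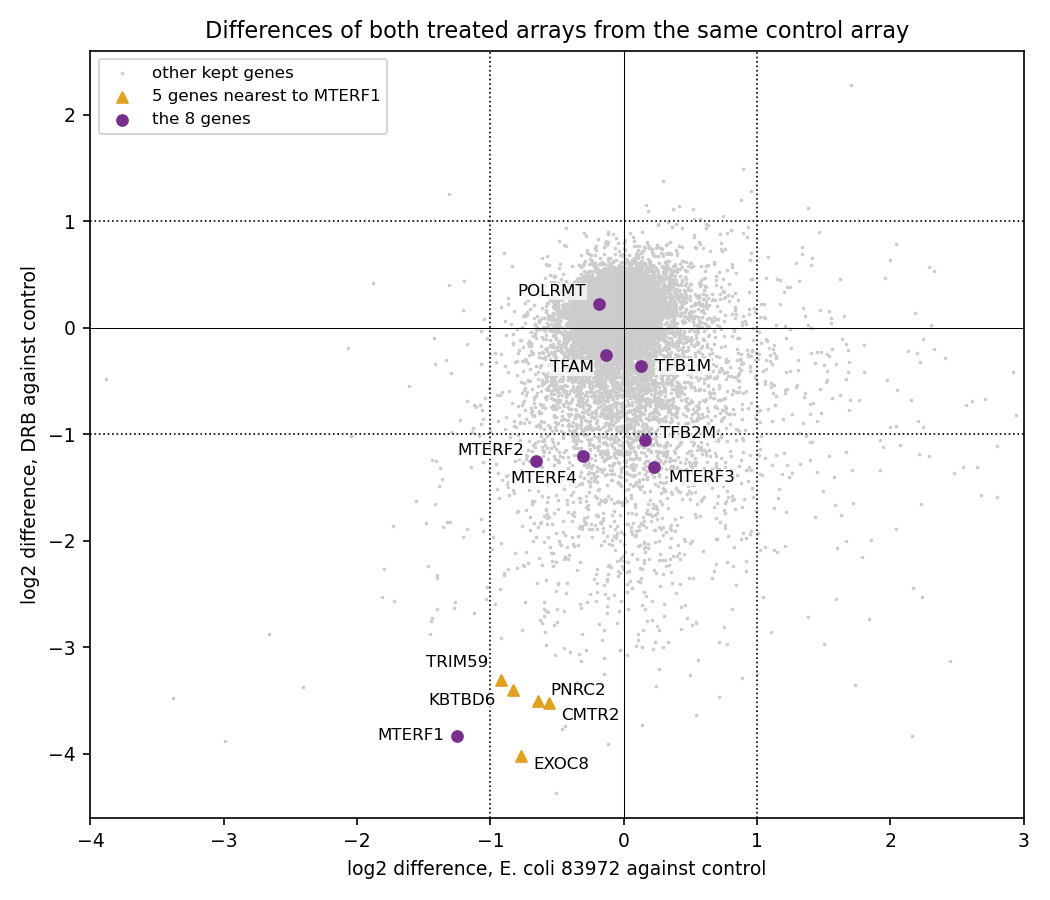
Log2 difference with E. coli 83972 (horizontal axis) against that with DRB (vertical axis), both from the same control array, for kept genes (grey), the 8 genes (circles) and the 5 genes nearest to MTERF1 (triangles). Dotted lines mark 2-fold, and 13 of 11653 kept genes lie outside the plotted range. MTERF1, at −1.25 and −3.83, is the one circle beyond 2-fold on both axes.

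Partners of the mitochondrial polymerase were read beside the 8 genes. Of 8 kept genes for elongation and nucleoid partners 3 were at least 2-fold lower with DRB, 0 higher, with a median of −0.45. The share lower was 37.5%, beside 10.2% of all kept genes. TEFM, the elongation factor of POLRMT, read 8.35 in control, 7.85 with E. coli 83972 and 5.88 with DRB, a DRB difference of −2.47. CLPX, the ATPase subunit of the matrix protease ClpXP, differed by −1.45, and the helicase gene TWNK by −0.89. MTRES1, a stress factor that binds the mitochondrial transcription machinery, read 6.60 in control, 5.24 with E. coli 83972 and 5.18 with DRB. Both treated arrays of MTRES1 were thus low by about the same amount, −1.42 with DRB and −1.36 with E. coli 83972. It was the one gene of this list 2-fold lower with E. coli 83972, against 0.652% of all kept genes, and had 1 probe set. TEFM differed there by −0.51, MRPL12 by −0.18 and TWNK by −0.13, and the median was −0.12. The stricter filter does not keep MTRES1, CLPX and TWNK, all of them low with DRB. With it 1 gene of the list, TEFM, was at least 2-fold lower with DRB and the median was 0.07. With E. coli 83972 0 were lower. In that setting 873 of 6839 kept genes were lower with DRB and 56 with E. coli 83972.

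Genes of mitochondrial RNA processing and decay had 8 of 22 at least 2-fold lower with DRB and 0 higher, with a median of −0.47. The share lower was 36.4%, beside 10.2% of all kept genes. TRMT10C, a subunit of mitochondrial RNase P, differed by −2.63 (mean −2.12 ± 0.72, SD over 2 probe sets). FASTKD3 differed by −1.60, PTCD1, a regulator of leucine tRNAs, by −1.58 and PDE12, which removes poly(A) tails, by −1.58. With the mean over all probe sets 5 were lower, beside 698 of 9861 kept genes in that setting. None was 2-fold different with E. coli 83972, where SUPV3L1, the helicase of the mitochondrial degradosome, was highest at 0.83, and PTCD1 (−0.61), PRORP (−0.52) and FASTKD5 (−0.52) followed in size.

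Genes of RNA modification and ribosome assembly had 6 of 27 lower with DRB (22.2%, beside 10.2% of all kept genes) and 0 higher (median −0.22). DDX28 differed by −1.81, but its 3 probe sets disagreed (mean −0.56 ± 1.09, SD). The tRNA methyltransferase gene TRMT5 differed by −1.53, the pseudouridine synthase gene PUS1 by −1.37 (mean −0.88 ± 0.56, SD over 3) and MRM2, a methyltransferase of the large ribosomal RNA, by −1.33. The 4 largest differences with E. coli 83972 were those of TRUB2 (−0.49), ERAL1 (−0.42), MPV17L2 (−0.41) and TRMT5 (0.31), and 0 of 27 reached 2-fold (median 0.02). With the mean over all probe sets 3 of this list were lower with DRB, beside 698 of 9861 kept genes in that setting.

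Genes for replication of mitochondrial DNA and nucleotide supply had 2 of 19 lower with DRB and 0 higher, a share near that of all kept genes, with a median of −0.08. They were POLG2, the accessory subunit of the DNA polymerase (−1.71), and the exonuclease gene MGME1 (−1.51), followed by the nucleotide carrier gene SLC25A33 (−0.98) and DNA2 (−0.97). None reached 2-fold with E. coli 83972 (median −0.11), and POLG2 (−0.74), TOP1MT (−0.58), SLC25A36 (0.47, mean 0.14 ± 0.35, SD over 3 probe sets) and TYMP (0.46) were the largest. Mitochondrial translation factors had 1 of 12 lower with DRB (8.33%, near the 10.2% of all kept genes) and 0 higher (median −0.16). It was MTRFR, a ribosome rescue factor, at −1.62, ahead of MTIF3 (−0.69 and 0.53 in 2 probe sets), MTRF1 (−0.46) and TACO1 (−0.46). With E. coli 83972 none of the 12 reached 2-fold (median −0.08), and MTRFR was highest at 0.58, with GUF1 at −0.50, MTIF3 at −0.43 (0.07 in its other probe set) and MTRF1L at 0.26.

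Nuclear regulators of mitochondrial biogenesis had 2 of 11 kept genes lower with DRB (18.2%, beside 10.2% of all kept genes) and 0 higher (median −0.36). CREB1 differed by −1.48, but its 6 kept probe sets ran from −2.76 to −0.42 (mean −1.43 ± 0.80, SD). PPRC1, a coactivator related to PGC-1, differed by −1.29, GABPB1, the partner of GABPA, by −0.81 and NFE2L2 by −0.77. MYC was the one gene of the 11 at least 2-fold higher with E. coli 83972, at 1.25, beside 1.91% of all kept genes, and 0 were lower (median 0.15). With hybridization centring no gene of the list was 2-fold higher there. NFE2L2 differed by 0.82 in its brightest probe set, but by 1.04, past 2-fold, in its other. PPRC1 differed by 0.53 and CREB1 by 0.51. GABPA, which binds the ETS letters above and is named for that, differed by −0.36 with DRB and −0.09 with E. coli 83972. NRF1, named for the same reason, was not kept, with 4.27, 4.53 and 3.78 on the control, E. coli 83972 and DRB arrays, so its differences are not read.

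The nuclear RNA polymerases and their factors were taken as the nearest counterpart, and 5 of 29 were at least 2-fold lower with DRB, 0 higher, with a median of −0.14. The share lower was 17.2%, beside 10.2% of all kept genes. The RNA polymerase III subunit genes POLR3F (−1.90) and POLR3B (−1.63) and TBP (−1.32) had the largest DRB differences. TTF1, the termination factor of RNA polymerase I, followed at −1.31 (mean −0.90 ± 0.36, SD over 3). With the mean over all probe sets 3 of the list were lower, beside 698 of 9861 kept genes in that setting. With E. coli 83972 none of the 29 reached 2-fold (median −0.04), and UBTF (−0.69), TTF1 (−0.62), POLR3B (−0.57) and POLR3E (0.36) were the largest. The 8 mitochondrial factors had a share of 62.5% lower with DRB beside 17.2% here, which was part of how they were chosen and was not tested. None of the 15 mitochondrially encoded transcripts was represented by a named probe set, so the RNA that these factors make was not measured here.

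**Figure D4:**
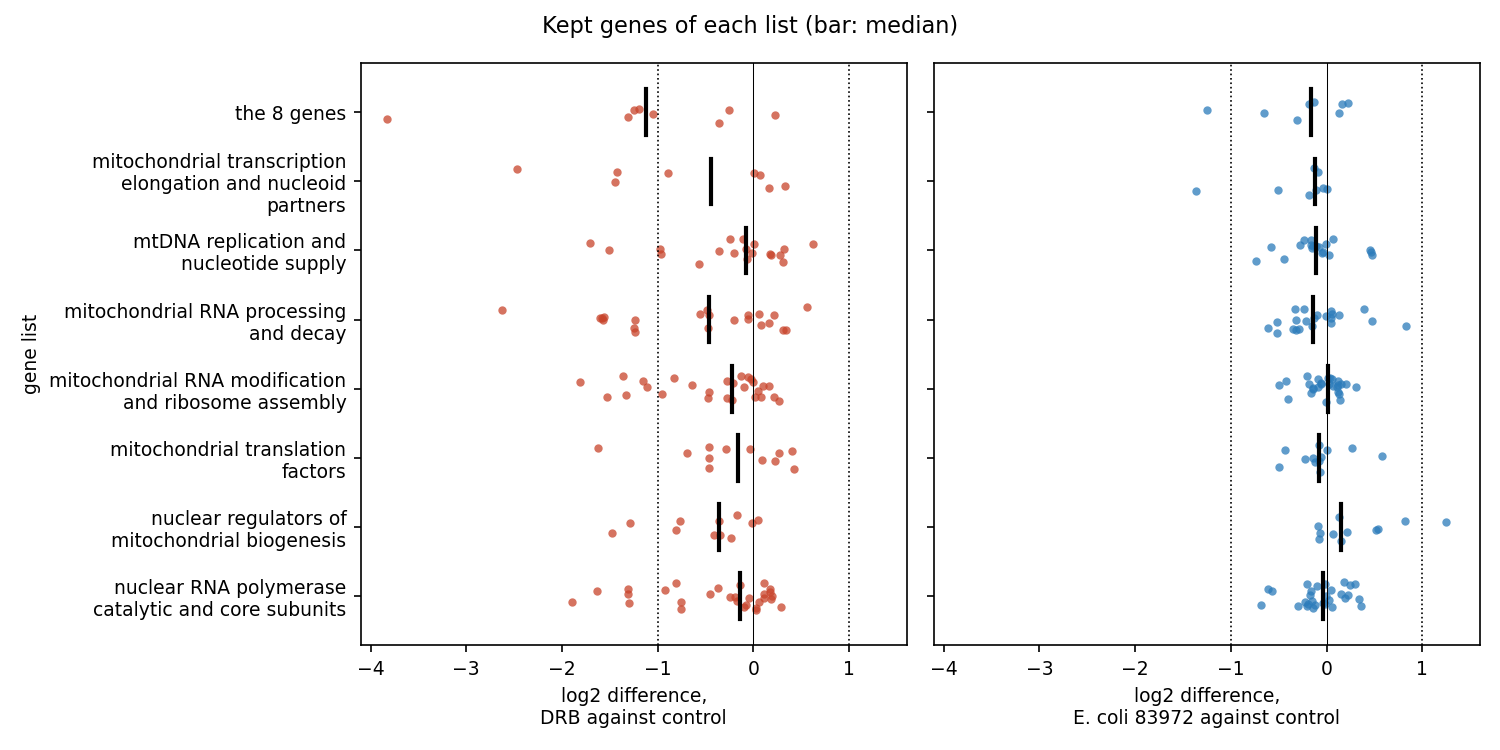
Log2 differences (horizontal axis) of the kept genes of each list (vertical axis, 1 point per gene, spread vertically for display, bar at the median), for DRB against control (left) and E. coli 83972 against control (right), with 2-fold dotted. The 8 genes had a DRB median of −1.12, and the other lists had medians of −0.47 to −0.08.

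The motifs shown above were set beside the DRB differences of the 9563 kept genes with a promoter sequence, as a description across genes. Of 1037 genes with an ETS match 137 were at least 2-fold lower with DRB, or 13.2%, beside 855 of 8526 without one. Of 455 genes with an NRF1 match 63 were lower, or 13.8%, beside 929 of 9108 without one, or 10.2%. For the other motifs the shares with and without a match lay closer together. The shares were 11.5% beside 9.78% for CCAAT, 10.7% beside 9.76% for SP1 and 10.6%, or 17 of 160, beside 10.4% for YY1. None of these differences was tested. The 7 members with a promoter sequence showed no single pattern. MTERF1, TFB2M and MTERF4 were at least 2-fold lower with an ETS match, and MTERF2 with neither an ETS nor an NRF1 match. POLRMT with both matches, TFB1M with an NRF1 match and TFAM with neither were not lower by that much.

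The labelled cell type was checked on marker lists. Of 12 renal epithelial and renal carcinoma markers with a probe set 11 reached the filter level on every array. PAX8, a transcription factor of the kidney lineage, differed by −0.98 with DRB in its brightest probe set, but its 4 kept probe sets disagreed (mean −0.15 ± 0.63, SD). LHX1 differed by −1.66 with DRB and −1.42 with E. coli 83972 (means −1.28 ± 0.53 and −1.23 ± 0.27, SD over 2 kept probe sets). Leukocyte and blood markers had 2 of 10 at the filter level on the control and E. coli 83972 arrays and 4 of 10 on the DRB array. Endothelial markers had 2 of 7 and fibroblast markers 2 of 8 on each array. Among the leukocyte and blood markers CD68, a lysosomal protein best known from macrophages, read 9.08 in control and the globin gene HBB 6.13, and both were above the filter level on all arrays. PTPRC, the pan-leukocyte marker, read 3.41 to 3.52, under it on all 3.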

How the data were processed

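Total RNA of 3 cultures was measured on 1 Affymetrix 3' array each. The deposited log2 probe-set values were made by the authors with RMA and Partek, per the submitters' processing notes. Their versions, and how many arrays entered the normalization, were not stated in the sources used here. RMA brings arrays to nearly one distribution, which reduces a change shared by most transcripts, and compresses dim values. Array medians were 4.87 (control), 4.90 (E. coli 83972) and 4.88 (DRB), and no further normalization was applied.

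The platform annotation gave 1 symbol for 45259 probe sets and several for 1327, which named none. Symbols were updated by Entrez identifier with a RefSeq table. Probe sets with the suffix _s_at or _x_at may detect other transcripts too. Of the brightest member probe sets, those of TFB2M, TFAM and POLRMT end in _s_at. The brightest probe set stood for a gene. Differences are log2 values of 1 array minus control. With 1 array per group there is no test or p-value, and precision is limited by that number.

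The members, lists and motifs were chosen with earlier results of these data known. Named are all members, up to 4 kept genes per list and comparison with the largest differences, and the 5 genes nearest to MTERF1, with exceptions stated. Alternatives were the mean over probe sets, no filter, a stricter filter (the 75th percentile, 6.91), centring on poly-A or hybridization spike-ins, loess correction, and plain-suffix probe sets alone. Calculations, in Python 3.11.15 with pandas 2.3.3, were tested on simulated data.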

Additional observations from a re-analysis of the deposited data

How the results depend on the processing

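No paired analysis was possible because each group held 1 array, and no array could be left out. The 5 genes at least 2-fold lower with DRB were 4 to 6 under the alternatives (4 with the mean over all probe sets, where MTERF4 was −0.54, and 4 of 6 kept with the stricter filter). MTERF1 was 2-fold lower with E. coli 83972 under each alternative that gave a value, but only loess correction could have raised that value. No member has a plain-suffix probe set, so that setting gave none. The median of the 8 genes with DRB was −0.79 when probe sets were averaged and −1.78 with poly-A centring. With E. coli 83972 it was −0.41 with hybridization centring.

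Over all kept genes the 2-fold counts with DRB were 698 lower and 6 higher when probe sets were averaged, 2880 and 1 with poly-A centring and 401 and 7 with plain-suffix probe sets, where 3459 genes were kept. The higher genes, 15 as deposited, were 5 with hybridization centring and 8 with loess correction. The counts with E. coli 83972 were 43 lower with the mean over probe sets, 115 with poly-A centring and 22 with plain-suffix probe sets, with 82 higher in the last. With hybridization centring 170 were lower and 141 higher, so 45.3% of genes at least 2-fold different were higher, and with poly-A centring 59.8%, in place of 74.5%. Spike-in centring moves all differences of an array alike, and the cause of the other changes was not tested.

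Of 92 values of single members under alternatives 18 moved by more than the plain technical deviation, and 0 at least 2-fold different changed sign. This tally was largely fixed by the settings. Poly-A centring moved every DRB value by −0.65 and hybridization centring every E. coli 83972 value by −0.25, both beyond that deviation. The filters cannot change the value of a member. Of 294 list values 45 moved. Dim signal limits the DRB values of MTERF1 and MTERF2, and 4 probe sets of MTERF4 and POLRMT, most.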
